A study of Mus musculus with 9 samples.

Results

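Between 13 and 21 months of age, 1 gene of the mouse seminal vesicle passed the test, Thbs1, and many genes of immunoglobulins, antigen presentation and complement stood higher in each 21-month library without passing it. The interval was read from all genes with enough counts, 16067 of the 53379 in the deposited table, in 3 libraries at 21 months and 3 at 13 months, 6 of the 9 libraries of the series. The other 3 libraries, at 3 months, entered the estimate of the spread and show which differences were already present in the earlier interval. The labels give the tissue and the age, and no strain, treatment, genotype or animal. The p-values therefore measure only the spread between these libraries, which may be technical.

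The seminal vesicle is an androgen-dependent accessory gland whose epithelium secretes most of the fluid of the ejaculate, including the seminal vesicle secretory proteins that form the copulatory plug of rodents. Plasma cells secrete immunoglobulins, and in mucosal tissues the joining chain links them into polymers that epithelia carry into secretions. MHC class II molecules show peptides to helper T cells, MHC class I molecules show them to cytotoxic T cells, and complement proteins mark targets for clearance by phagocytes. Thrombospondin 1 is a secreted matrix glycoprotein of wounds, platelets and stressed tissue that restrains vessel growth and activates latent TGF-beta.

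Total counts ran from 17137206 to 22523316 in the 21-month libraries and from 19415757 to 24791943 in the 13-month libraries, where 3 counts equal 0.121 to 0.175 CPM (counts scaled to 1e+06 per library). The tissue label was checked against the secretory proteins, which took 22.8%, 45.9% and 57.7% of counts in 21-month replicates 1, 2 and 3, against 63.96%, 58.2% and 61.7% at 13 months. Values of 3 libraries are given below in that order of replicates. The 21-month libraries differed from each other more than the 13-month libraries did. A list of 14 prostate genes took 2.69%, 0.0125% and 0.00751% of counts at 21 months, against 0.00574% to 0.00736% at 13 months. These are the prostate markers without Spink1, which was left out after its values were seen because every library holds it. Other markers that every library holds, such as Spint1, Man1a, Mme and Apof, were kept. The 18 adipocyte markers took 0.0655%, 0.433% and 0.00610%, against 0.00448%, 0.00652% and 0.00478%, and the 21 nerve and Schwann cell markers took 0.0289%, 0.0179% and 0.00404%, against 0.00225%, 0.00388% and 0.00380%. Tgm4 and Pbsn, the prostate genes of a transglutaminase and of probasin, had 300932 and 108258 counts in replicate 1, 8 and 3 in replicate 2, and 0 each in replicate 3. In 21-month replicate 3, 6 of the 14 prostate markers and 8 of the 18 adipocyte markers were at 0. The main results below therefore carry a second value, fitted with replicate 3 standing alone for 21 months, which borrows its spread from the libraries of the other ages. Bulk RNA cannot tell fewer cells of a type from less RNA per cell.

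**Figure D1:**
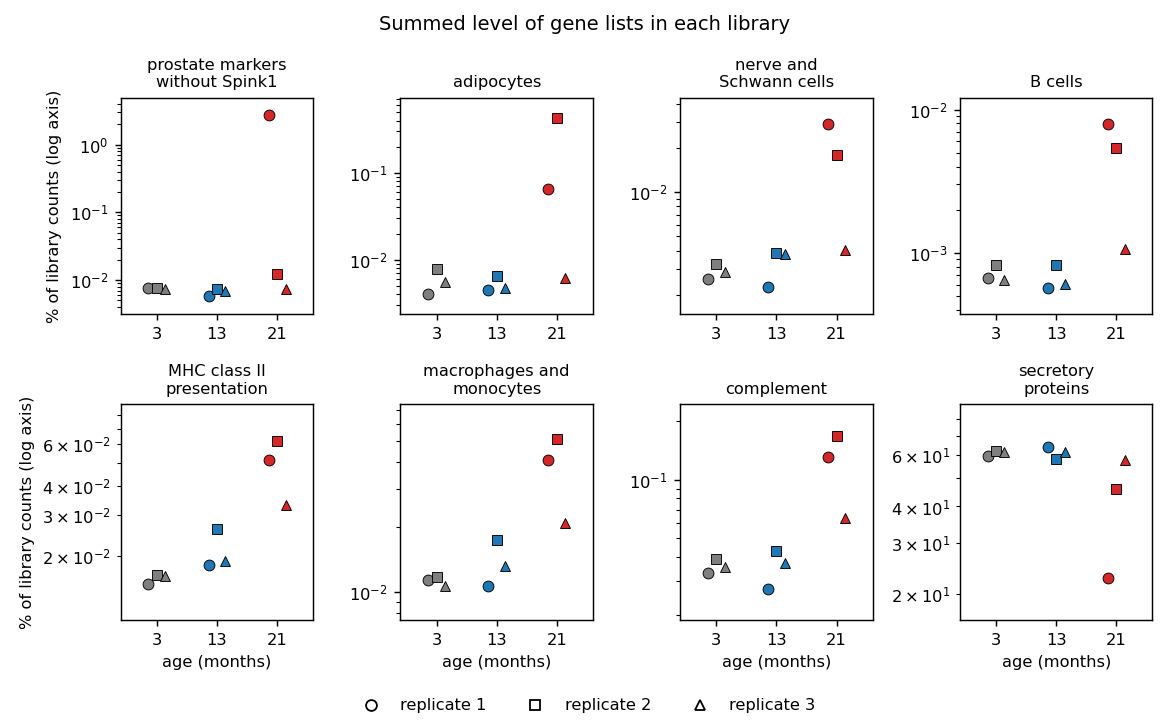
Summed share of library counts (%, log axis) of 8 gene lists in each library by age in months; each point is 1 library and its shape gives the replicate number. Prostate, adipocyte and nerve genes were high in 21-month replicates 1 or 2 and close to the younger libraries in replicate 3. MHC class II, macrophage and complement genes were above the 13-month libraries in all 3, as were prostate and nerve genes, the latter pair only narrowly in replicate 3. The shares are of library totals without TMM, a scale on which 4654 tested genes lay above in all 3 libraries and 88 below. The complement list includes the adipocyte marker Cfd.

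Of the 16067 genes, 1 was higher at 21 months (0.00622%) and 0 were lower (0%) at an adjusted p under 0.05 by the edgeR quasi-likelihood test, with Benjamini-Hochberg adjustment over all genes. At an unadjusted p under 0.05, 1619 were higher (10.1%) and 906 lower (5.64%). The next smallest adjusted p, 0.1965, was shared by 322 genes. On the same counts DESeq2 called 428 genes, 340 higher and 88 lower, and limma-voom called 3, Thbs1, Igkc and Iglc2. Leaving out 21-month replicate 3 raised the edgeR count to 1244, 809 higher and 435 lower, and of the 1071 of these that the full set also tested, 57.2% had replicate 3 outside the 13-month range on the same side, a share that rests on the same 13-month libraries as the calls. Independently of any test, all 3 libraries of 21 months lay above all 3 of 13 months in 1284 genes (7.99%) and below them in 1325 (8.25%). These shares are the background for each gene group below, in which no member other than Thbs1 passed. Values are CPM scaled by TMM, a factor that sets the middle of the genes equal between libraries. With library totals alone the median log2 fold change moved up by 0.54 and the counts became 4654 above and 88 below, so each change is relative to the other genes.

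**Figure D2:**
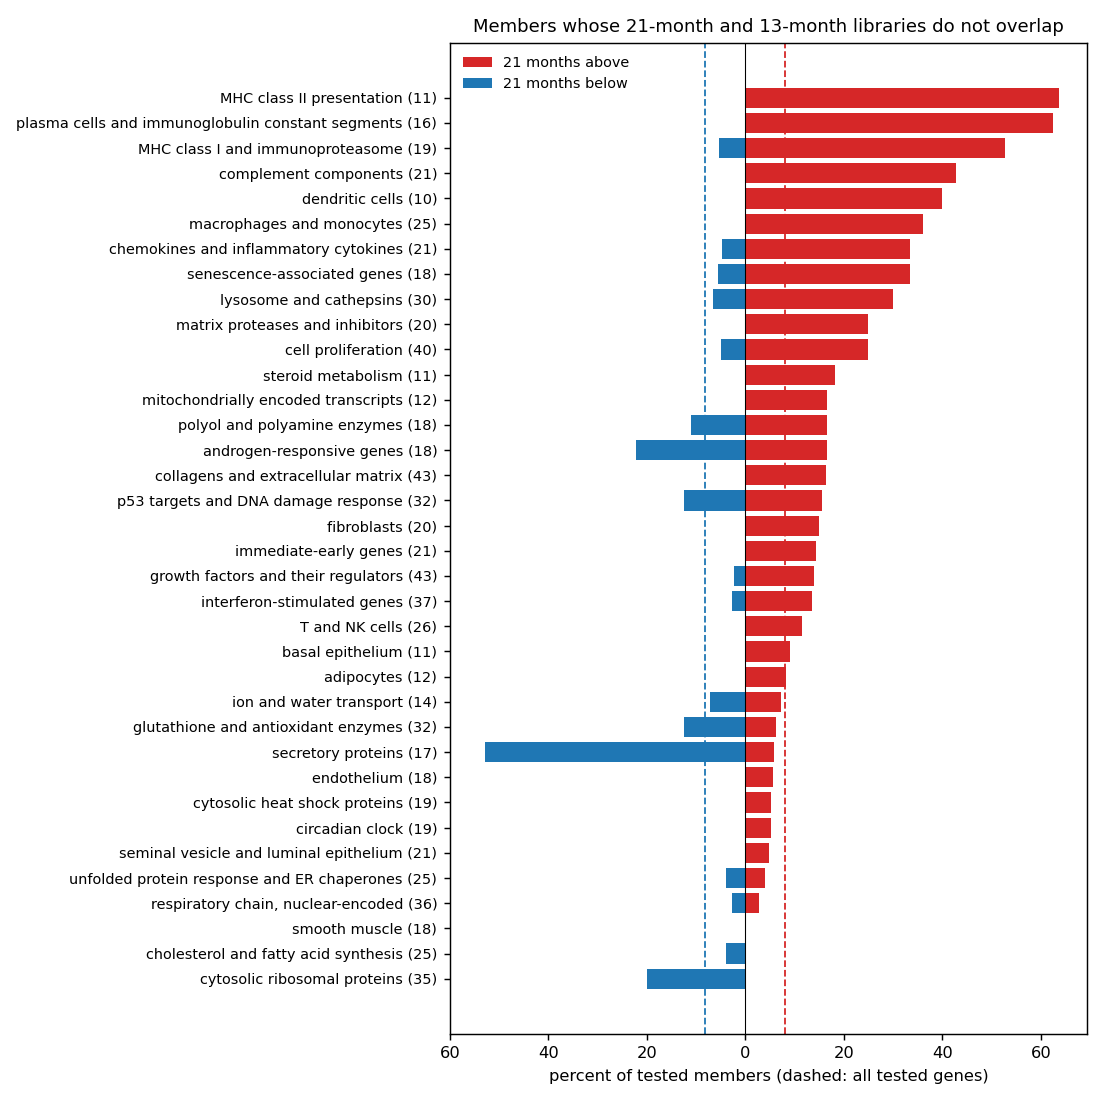
Percent of the tested members of each list with at least 10 of them (number in brackets) whose 3 libraries at 21 months all lay above (red, right) or all below (blue, left) the 3 libraries at 13 months; dashed lines give the shares of all tested genes, 7.99% above and 8.25% below. Of the lists plotted, MHC class II, plasma cell, MHC class I and complement genes had the highest shares above and secretory proteins the highest share below. Of the 16 plasma cell members, 2 had under 10 counts in each younger library, so that share is partly fixed by the filter. Single members of other lists also passed the filter only through the 21-month libraries, among them Cd5, Cd69, Cd209a, Cxcl9 and Mmp12.

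Thbs1 (ENSMUSG00000040152, GRCm38 chromosome 2, 118111876 to 118127133) was the gene that rose. It had 52.6, 55.2 and 48.1 TMM-scaled CPM at 21 months, against 10.6, 10.6 and 15.04 at 13 months. Even the lowest 21-month library held over 3 times the level of the highest 13-month library, and the 3 were close to each other. The log2 fold change was 2.10 ± 0.19 (SE, adjusted p = 0.0159), and 1.99 with replicate 3 alone. At 3 months the gene stood at 8.35, 13.1 and 12.3, near its 13-month level (log2 0.11 at 13 against 3 months). The edgeR test of whether its change differed between the 2 intervals did not pass (adjusted p = 0.1825). At 21 against 13 months the adjusted p ran from 2.1e-19 with DESeq2 to 0.3147 against a minimum 2-fold change. The call ended, with the log2 fold change between 1.99 and 2.10, with the 6 libraries of both ages alone (0.05537), with replicate 3 alone (0.05152) and without 3-month replicate 3 (0.07351), 13-month replicate 1 (0.1364) or 2 (0.1394), or 21-month replicate 2 (0.05927). An antisense gene that overlaps Thbs1, Gm29233, had 1 count in all 9 libraries together.

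Relatives of Thbs1 and other matricellular genes were read beside it, a choice made with their values in view. Thbs2, the relative of Thbs1 that stromal cells secrete, had 6.91, 18.9 and 8.26 TMM-scaled CPM at 21 months, against 3.73, 4.07 and 5.103 at 13 months. It did not pass (log2 1.40 ± 0.40, adjusted p = 0.2095). Thbs3 overlapped between the ages, with 3.64, 6.31 and 2.996 TMM-scaled CPM at 21 months, against 1.89, 4.02 and 5.103 at 13 months. The matricellular genes Ccn1 and Ccn2, immediate targets of mechanical and TGF-beta signals, were higher in each 21-month library. Ccn1 had 9.54, 13.2 and 6.901 TMM-scaled CPM at 21 months, against 1.24, 2.35 and 5.64 at 13 months. For Ccn2 the values were 39.8, 71.8 and 72.5 TMM-scaled CPM at 21 months, against 14.7, 34.9 and 29.5 at 13 months, and neither passed (adjusted p = 0.2154 and 0.2801).

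**Figure D3:**
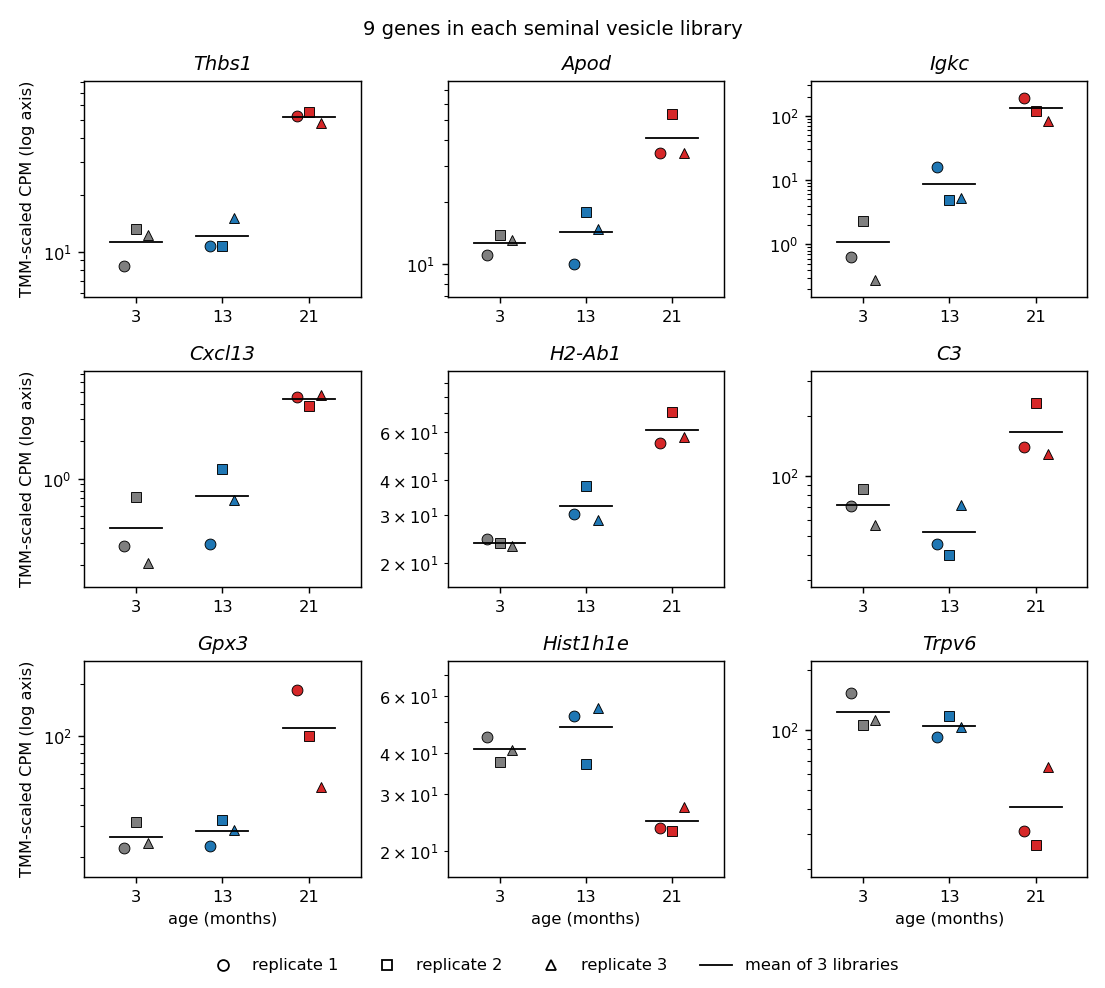
TMM-scaled CPM (log axis) of 9 genes in each library at 3, 13 and 21 months; each point is 1 library, its shape gives the replicate number and the line is the mean of 3. In each panel the 3 libraries at 21 months lie on one side of the 6 younger ones, and only Thbs1 passed the test at 21 against 13 months.

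Immunoglobulin transcripts were higher by large factors in all 3 libraries. All immunoglobulin segments together took 0.124%, 0.0693% and 0.0358% of counts at 21 months, against 0.00680%, 0.00233% and 0.00271% at 13 months. They were already above the 0.000367% to 0.00128% of the 3-month libraries at 13 months. Of the 423 annotated segments, 27 passed the filter on low counts, 11 of them with under 10 counts in each of the 6 younger libraries. Such segments could pass only where they were high, so no count of directions is given for them. The plasma cell list, which holds the constant segments, had 10 of 16 tested members above and 0 below, with a median log2 fold change of 2.24, or 2.39 with replicate 3 alone, where all tested genes had a median of 0.0047. Of these 16, 2 had under 10 counts in each younger library and could pass only where they were high. The count above and the median of this list are therefore partly fixed by the filter. The median was 0.18 when at least 10 counts were asked of all 9 libraries, a filter that removes genes near 0 in young tissue, and was 3.90 without 13-month replicate 1.

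Igkc (GRCm38 chromosome 6, 70726435 to 70726966), the constant segment of the kappa light chain, had 189, 118 and 84.5 TMM-scaled CPM at 21 months, against 15.9, 4.96 and 5.24 at 13 months. All 3 libraries were over 5 times the highest of 13 months, with a log2 fold change of 3.92 ± 0.60 (adjusted p = 0.1965) and 3.31 with replicate 3 alone. Its log2 fold change in the earlier interval was 3.02. Ighm, the constant segment of IgM, had 412, 284 and 159 TMM-scaled CPM at 21 months, against 42.5, 11.7 and 16.9 at 13 months. The joining chain gene Jchain had 37.2, 21.7 and 22.8 TMM-scaled CPM at 21 months, against 6.799, 1.72 and 1.88 at 13 months. Both were above every 13-month library and neither passed (adjusted p = 0.1965 and 0.1965). Irf4, a transcription factor that plasma cells need, had 2.82, 3.96 and 1.41 TMM-scaled CPM at 21 months, against 0.769, 0.782 and 0.403 at 13 months. Ighm, Jchain and Irf4 were chosen after their values were seen. Iglc2, a lambda light chain segment, had 2.82, 2.198 and 2.23 TMM-scaled CPM at 21 months, against 0.0591, 0.157 and 0 at 13 months, levels too near the counting floor at 13 months for a fold.

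B cell genes, summed over their list, were highest in 21-month replicate 1 and lowest in replicate 3 of that age. The B cell list took 0.00793%, 0.00536% and 0.00106% of counts at 21 months, against 0.000568%, 0.000824% and 0.000609%. Cd79b, of the B cell receptor complex, had 2.41, 1.297 and 0.636 TMM-scaled CPM at 21 months, against 0.0591, 0.417 and 0 at 13 months. Cd22, an inhibitory receptor of B cells, had 3.94, 1.98 and 0.545 TMM-scaled CPM at 21 months, against 0.177, 0.417 and 0.134 at 13 months, highest in replicate 1. Ms4a1, the gene of CD20, did not reach the filter, with 97, 27 and 3 counts at 21 months and 2, 0 and 1 at 13 months. In replicate 3 this marker was at the counting floor of 3. Of the 16 listed genes 6 passed the filter, 2 of them with under 10 counts in each younger library. Those 2 could pass only where they were high, so no count of directions is given for this list. Its median log2 fold change of 2.69, or 0.88 with replicate 3 alone, is partly fixed by the filter.

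T and NK cell genes had their main difference earlier. The median log2 fold change of the 26 tested members was 1.38 at 13 against 3 months and 0.59 at 21 against 13 months, or 0.14 with replicate 3 alone. At 21 months 3 members were above every 13-month library (Cd5, Cd69 and Il7r) and 0 below. Of these, Cd5 and Cd69 passed the filter on low counts only through the 21-month libraries. The count above and the later median are therefore partly fixed by the filter. Il7r, the interleukin 7 receptor, chosen after its values were seen, had 0.461, 0.7095 and 0.345 at 3 months, 2.37, 2.61 and 1.39 at 13 months and 3.602, 3.099 and 2.82 TMM-scaled CPM at 21 months. Cd69, an early activation and residency marker, had 0.0576, 0.07095 and 0.207 at 3 months, 0.532, 0.417 and 0.179 at 13 months and 0.928, 0.649 and 0.863 TMM-scaled CPM at 21 months. Both comparisons share the 13-month libraries.

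Most genes of MHC class II presentation were higher in all 3 libraries. Of 11 tested members 7 had all 21-month libraries above all 13-month ones, with log2 fold changes of 0.66 (H2-Aa) to 0.91 (H2-Ab1), 0 were below, and the same 7 were above the 3-month libraries as well. The other 4 overlapped, from Ifi30 at -0.18 to H2-Ob at 1.43, the last of which was at -0.48 with replicate 3 alone. The median log2 fold change was 0.75, or 0.42 with replicate 3 alone. To show a sequence element that such genes share, the 250 bases before the annotated start are given for a pair of them from RefSeq (GRCm38.p6), H2-Aa (chr17:34287824-34288073, minus strand) and H2-Eb1 (chr17:34305617-34305866, plus strand), with the motif CTGATTGG, the core of the class II Y box, in capitals.
H2-Aa: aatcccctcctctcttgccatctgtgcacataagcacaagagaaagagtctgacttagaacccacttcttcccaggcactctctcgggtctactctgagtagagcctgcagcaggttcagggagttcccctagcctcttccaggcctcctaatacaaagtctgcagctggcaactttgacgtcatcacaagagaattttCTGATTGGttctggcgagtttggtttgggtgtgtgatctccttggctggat
H2-Eb1: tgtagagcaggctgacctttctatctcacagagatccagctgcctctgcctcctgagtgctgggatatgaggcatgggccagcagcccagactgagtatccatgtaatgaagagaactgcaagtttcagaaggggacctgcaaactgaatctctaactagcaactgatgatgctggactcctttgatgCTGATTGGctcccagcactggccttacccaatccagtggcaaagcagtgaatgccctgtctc
The motif begins 51 bases upstream of the H2-Aa start and 62 bases upstream of the H2-Eb1 start. RefSeq promoters were matched for 9 of the 12 listed genes, as 10 promoters, of which 3 held CTGATTGG on either strand, as did 3.83% of 32851 mouse promoters. The shorter ATTGG inside it was found in 7 of the 10 and in 33.8% of all. A match is a description of the letters and says nothing of a factor bound there.

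H2-Ab1 (GRCm38 chromosome 17, 34257689 to 34269419), the beta chain of I-A, had 54.4, 70.6 and 57.2 TMM-scaled CPM at 21 months, against 30.1, 38.1 and 28.7 at 13 months. The log2 fold change came to 0.91 ± 0.14 (adjusted p = 0.1965) and 0.83 with replicate 3 alone, and it stood at 24.5, 23.7 and 23.1 at 3 months. H2-Eb1, the beta chain of I-E, had 47.9, 74.6 and 52.7 TMM-scaled CPM at 21 months, against 33.4, 39.2 and 31.3 at 13 months. For H2-Aa, the alpha chain of I-A, the values were 61.4, 96.4 and 65.9 TMM-scaled CPM at 21 months, against 48.1, 54.8 and 38.6 at 13 months. Cd74, the invariant chain that guides class II molecules to the endosome, had 94.1, 142 and 95.3 TMM-scaled CPM at 21 months, against 60.8, 74.02 and 58.5 at 13 months. Replicate 2 was the highest in each of these 4 genes, and replicates 1 and 3 were close to each other. None passed (adjusted p from 0.1965 to 0.2041). Ctss, the cathepsin that trims the invariant chain, had 26.1, 39.5 and 29.7 TMM-scaled CPM at 21 months, against 19.6, 22.1 and 16.2 at 13 months. H2-Aa, Cd74 and Ctss were chosen after their values were seen.

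The MHC class I list had 10 of 19 members above and 1 below, with a median log2 fold change of 0.45, or 0.24 with replicate 3 alone. Psmb8, a catalytic subunit of the immunoproteasome, had 10.5, 10.5 and 7.26 TMM-scaled CPM at 21 months, against 4.32, 5.37 and 3.76 at 13 months. The heavy chain gene H2-D1 had 182, 204 and 153 TMM-scaled CPM at 21 months, against 144, 132 and 118 at 13 months. Both were above the 13-month range in each library without passing (adjusted p = 0.1965 and 0.2095). The member below was B2m, the light chain shared by all class I molecules and by far the most abundant of the list. It had 1864, 3022 and 5418 TMM-scaled CPM at 21 months, against 7301, 5527 and 7303 at 13 months. The log2 fold change of B2m was -0.97 ± 0.36 (adjusted p = 0.2645), replicate 1 was the lowest, and the order of the 21-month libraries was that of the secretory share. H2-D1 and B2m were chosen after their values were seen. As B2m held most of the list's counts, the summed share of the list was lower at 21 months, 0.394%, 0.4904% and 0.5803%, against 0.635%, 0.591% and 0.695%, while most members were higher.

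**Figure D4:**
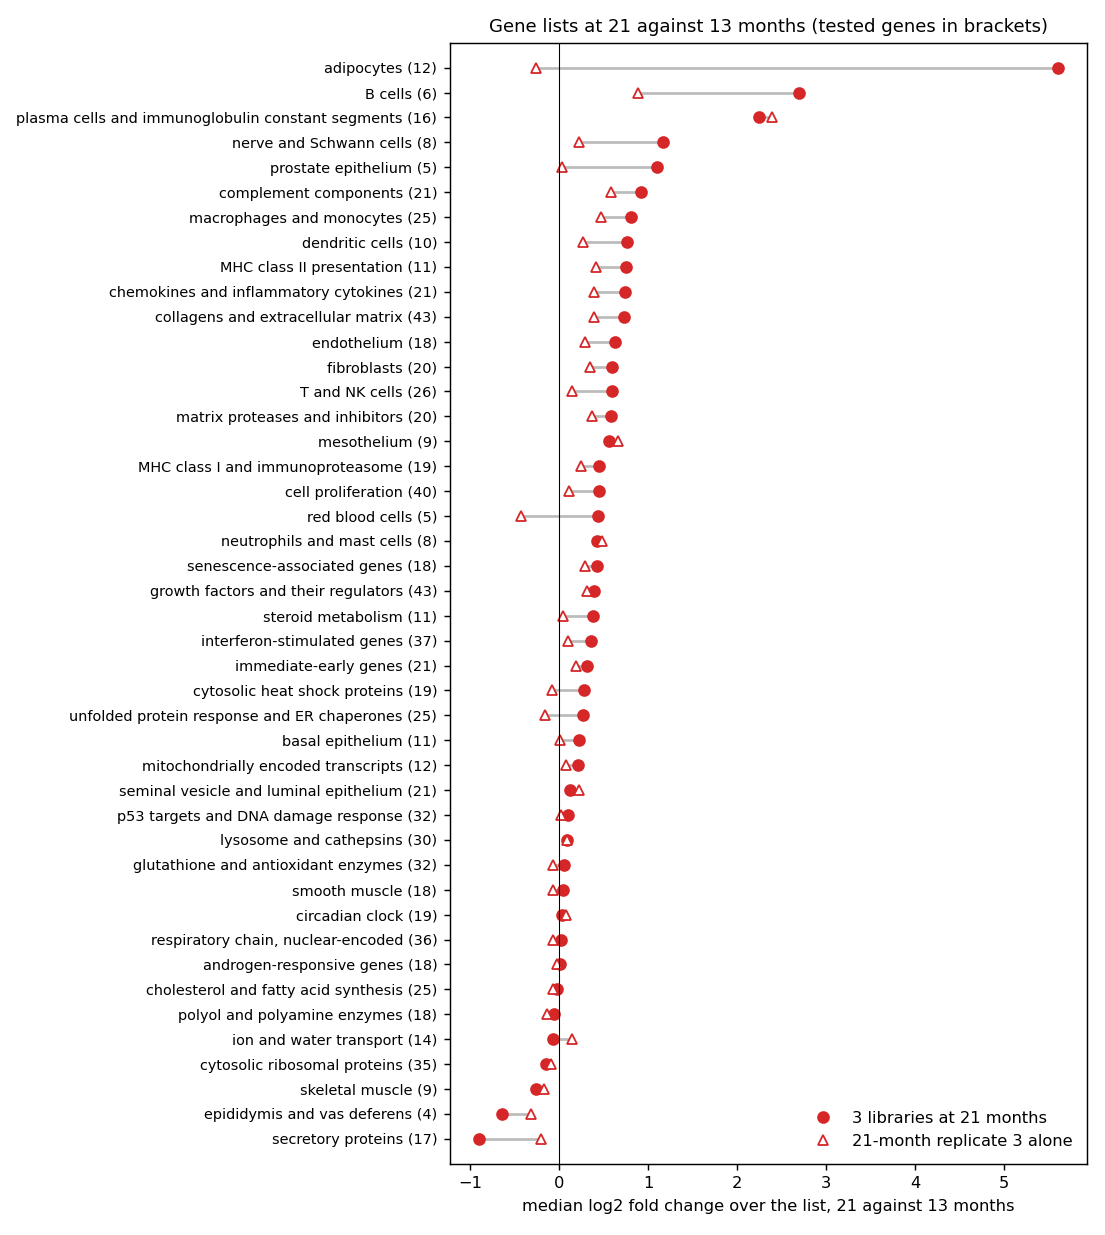
Median log2 fold change at 21 against 13 months over the tested members of each list (number in brackets), with all 3 libraries at 21 months (filled circles) and with replicate 3 as the only 21-month library (open triangles). Immune lists keep a positive median in replicate 3, and the adipocyte list has 5.61 with all 3 libraries and −0.26 with replicate 3.

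Complement genes, 21 of them tested, had 9 above and 0 below, a median log2 fold change of 0.92 and 0.58 with replicate 3 alone. Without 21-month replicate 2 the median was 0.56. The list includes Cfd, also an adipocyte marker, which had the highest log2 fold change of the list (9.52). Cfd had 1629, 9307 and 1 counts at 21 months, against 9, 0 and 1 at 13 months. C3 (GRCm38 chromosome 17, 57203970 to 57228136), on whose cleavage all complement pathways converge, had 139, 231 and 128 TMM-scaled CPM at 21 months, against 45.5, 40.2 and 71.7 at 13 months. The log2 fold change of C3 was 1.66 ± 0.29 (adjusted p = 0.1965) and 1.30 with replicate 3 alone, and the 3-month libraries stood at 70.9, 86.0 and 56.5. C1ra, a protease of the first component, had 17.1, 19.1 and 11.99 TMM-scaled CPM at 21 months, against 6.799, 8.24 and 9.04 at 13 months. The subunits of C1q, which macrophages make, had similar values, with log2 fold changes of 0.97, 0.90 and 0.95 for C1qa, C1qb and C1qc. C4b, a fourth-component gene with the near-identical neighbour C4a, had 33.4, 74.1 and 15.5 TMM-scaled CPM at 21 months, against 6.15, 13.8 and 10.4 at 13 months. Replicate 3 was the closest to the 13-month range for C4b, and none of these genes passed (adjusted p = 0.1965). The C1q subunits and C4b were chosen after their values were seen.

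Macrophage and monocyte markers had 9 of 25 tested members above and 0 below, with a median log2 fold change of 0.81, or 0.47 with replicate 3 alone. Lyz2, the lysozyme of macrophages, which has the near-identical copy Lyz1, had 46.2, 79.4 and 50.2 TMM-scaled CPM at 21 months, against 22.7, 33.02 and 23.99 at 13 months. Fcgr3, a low-affinity receptor for IgG, had 7.501, 11.5 and 6.72 TMM-scaled CPM at 21 months, against 4.73, 4.07 and 3.85 at 13 months. Their log2 fold changes were 1.14 ± 0.22 and 1.03 ± 0.22 (adjusted p = 0.1965 each). Among dendritic cell markers 4 of 10 were above and 0 below. Of the 4, Cd209a passed the filter on low counts only through the 21-month libraries, so this count is partly fixed by the filter. Smooth muscle markers gave 0 above and 0 below of 18, with a median of 0.048.

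The lysosome list split, with 9 of 30 above, 2 below and a median of 0.089, near that of all genes. Those above included the cathepsins Ctsc, Ctsh, Ctss and Ctsz, proteases that phagocytes hold in quantity. Ctsh, cathepsin H, had 19.4, 19.2 and 16.6 TMM-scaled CPM at 21 months, against 7.86, 11.1 and 9.18 at 13 months. The 3 libraries of 21 months were close to each other, with a log2 fold change of 0.98 ± 0.14 (adjusted p = 0.1965) and 0.83 with replicate 3 alone. In the earlier interval its log2 fold change was 0.22.

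Of 21 tested chemokines and cytokines 7 were above and 1 below. Cxcl9, among the 7, passed the filter on low counts only through the 21-month libraries, so this count is partly fixed by the filter. Cxcl13, which attracts B cells and marks lymphoid follicles, had 4.53, 3.86 and 4.72 TMM-scaled CPM at 21 months, against 0.296, 1.20 and 0.671 at 13 months. Its 3 libraries at 21 months were close to each other and replicate 3 was the highest, with a log2 fold change of 2.57 ± 0.44 (adjusted p = 0.1965) and 2.69 with replicate 3 alone. Cxcl9, an interferon-gamma-induced attractant of T cells, had 2.302, 3.28 and 0.5902 TMM-scaled CPM at 21 months, against 0.355, 0.261 and 0.224 at 13 months, and its 3-month values of 0.518, 0.568 and 1.38 overlapped those of 21 months. Tnfsf13b, the B cell survival factor BAFF, had 1.63, 2.27 and 1.82 TMM-scaled CPM at 21 months, against 1.24, 1.304 and 0.895 at 13 months. Il33, an alarmin of stromal and epithelial cells, had 8.28, 7.32 and 9.58 TMM-scaled CPM at 21 months, against 5.44, 6.21 and 7.07 at 13 months. Ccl8, a monocyte attractant, had 0.288, 0.07095 and 0.276 at 3 months, 1.18, 1.83 and 1.07 at 13 months and 4.49, 3.32 and 2.04 TMM-scaled CPM at 21 months, higher with each age. Tnfsf13b, Il33 and Ccl8 were chosen after their values were seen, and none of the 5 passed. Interferon-stimulated genes had 5 of 37 above and 1 below, with a median of 0.36, or 0.10 with replicate 3 alone. Their count above also includes Cxcl9 and carries the same limit of the filter.

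Matrix genes were higher on balance, and their size rested on single libraries. Of 43 tested collagens and matrix genes 40 had a positive log2 fold change, 7 were above with no overlap and 0 below, and 27 had replicate 3 above the 13-month range. The median was 0.73, but 0.20 without 21-month replicate 2 and 0.48 without 13-month replicate 1, whose matrix share of 0.0750% was the lowest of all libraries, against 0.177% and 0.1395% in 13-month replicates 2 and 3. Dcn, the collagen-binding proteoglycan decorin, had 197, 356 and 185 TMM-scaled CPM at 21 months, against 88.8, 131 and 145 at 13 months. Lum, the related proteoglycan lumican, had 6.796, 14.1 and 12.7 TMM-scaled CPM at 21 months, against 4.61, 6.99 and 3.45 at 13 months, with replicate 1 inside the 13-month range. Col1a1, a chain of type I collagen, overlapped, with 13.8, 36.3 and 21.1 TMM-scaled CPM at 21 months, against 8.10, 23.8 and 16.4 at 13 months. Col3a1, the chain of type III collagen, chosen with Col1a1 after the values were seen, had 259, 198 and 197 at 3 months, 45.6, 73.1 and 79.5 at 13 months and 77.3, 182 and 74.6 TMM-scaled CPM at 21 months, so that 2 of the 3 libraries at 21 months stayed far below those of 3 months. Fibroblast and endothelial markers had medians of 0.59 and 0.63, or 0.22 and 0.17 without 21-month replicate 2. Of 20 tested matrix proteases and inhibitors 5 were above and 0 below, among them Adamts5, Mmp15 and the metalloelastase Mmp12. Mmp12 passed the filter on low counts only through the 21-month libraries, so this count is partly fixed by the filter. Adamts5 had 6.76, 23.8 and 5.31 TMM-scaled CPM at 21 months, against 3.49, 2.82 and 4.34 at 13 months. Its 3-month values of 4.43, 5.68 and 6.555 overlapped those of 21 months. Mmp15 overlapped likewise, with 7.602, 7.805 and 9.38 at 3 months and 23.6, 8.14 and 6.81 TMM-scaled CPM at 21 months.

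Cell cycle arrest and stress genes were mixed. The senescence list had 6 of 18 above and 1 below, with a median of 0.42, or 0.29 with replicate 3 alone. Members were counted without an expected direction, Lmnb1 (log2 0.26) among those above, so the count is no score of senescence. Those above also include Mmp12, which passed the filter only through the 21-month libraries. Cdkn1a, the cell cycle inhibitor p21, had 3.45, 7.57 and 2.82 TMM-scaled CPM at 21 months, against 1.36, 1.51 and 1.84 at 13 months. Its log2 fold change was 1.55 ± 0.41 (adjusted p = 0.1965). Cdkn2a, the gene of p16 and p19ARF, was below the filter, with 4, 4 and 14 counts at 21 months and 35, 4 and 0 at 13 months. Igfbp7, a secreted binding protein of the insulin-like growth factor family, had 39.3, 58.2 and 46.7 TMM-scaled CPM at 21 months, against 23.5, 33.9 and 29.8 at 13 months, and its 3-month values of 34.2, 36.3 and 42.2 overlapped. The p53 and DNA damage list had 5 of 32 above, 4 below and a median of 0.097, near that of all genes. Gadd45b and Gadd45g, growth arrest genes of 1 family on that list, went opposite ways. Gadd45a, of the same family, overlapped between the ages, with a log2 fold change of 1.32, or 0.18 with replicate 3 alone. Gadd45b had 3.23, 2.63 and 1.63 TMM-scaled CPM at 21 months, against 0.6504, 0.835 and 0.716 at 13 months. Gadd45g had 11.4, 18.1 and 23.4 TMM-scaled CPM at 21 months, against 39.02, 41.5 and 35.3 at 13 months. Neither passed (log2 1.76 ± 0.37 and -1.13 ± 0.23, adjusted p = 0.1965 each), and their earlier log2 fold changes were -0.028 and 0.29.

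Immediate-early genes had 3 of 21 above and 0 below. Jun, of the AP-1 complex, had 35.1, 23.2 and 36.3 TMM-scaled CPM at 21 months, against 15.3, 16.7 and 19.8 at 13 months, and Socs3, the feedback inhibitor of cytokine signals, had 2.41, 2.52 and 1.95 TMM-scaled CPM at 21 months, against 0.532, 1.095 and 1.03 at 13 months. The glutathione list had 2 of 32 above and 4 below. Gpx3, the secreted glutathione peroxidase, had 184, 99.96 and 50.8 TMM-scaled CPM at 21 months, against 22.9, 32.6 and 28.6 at 13 months, with a log2 fold change of 1.99 ± 0.39 that was 0.86 with replicate 3 alone. Gclc, the catalytic subunit of the enzyme that limits glutathione synthesis, had 45.01, 42.4 and 62.6 TMM-scaled CPM at 21 months, against 79.6, 99.9 and 101 at 13 months. It differed by -0.90 ± 0.19 on the log2 scale (adjusted p = 0.1965), and its partner subunit Gclm, chosen after its values were seen, was lower by the smaller log2 value of -0.45 ± 0.11, a direction that turned to 0.079 with library totals alone.

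Secretory genes stood lower, with the size set by the library. Of 17 tested secretory proteins 9 had all 21-month libraries below all 13-month ones against 1 above, with a median log2 fold change of -0.90, or -0.21 with replicate 3 alone. It was −0.52 when 21-month replicate 1 was left out and −1.44 when replicate 3 was. Svs4, a major secretory protein, had 20660, 65550 and 102000 TMM-scaled CPM at 21 months, against 133100, 104000 and 118700 at 13 months. Pate4, the seminal vesicle protein also called SVS7, had 7038, 13700 and 22640 TMM-scaled CPM at 21 months, against 32400, 24450 and 29180 at 13 months. In both, replicate 1 was the lowest and replicate 3 was close to the lowest 13-month library. Svs5, of the same cluster, had 43920, 106200 and 175900 TMM-scaled CPM at 21 months, against 211500, 163800 and 206100 at 13 months, so its ages overlapped, and its log2 fold change was -0.83 ± 0.62 (adjusted p = 0.5344). Svs4 and Pate4 were chosen after their values were seen. The summed secretory share averaged 42.15% at 21 months and 61.31% at 13 months. A two-sided exact test by permutation of the 6 libraries gave p = 0.1, as low as 3 per age can reach, and 0.2 when adjusted over 8 lists. Clu, clusterin, a stress-induced chaperone of secretions, was the member above, with 325, 142 and 198 TMM-scaled CPM at 21 months, against 109, 138 and 104 at 13 months.

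A calcium channel and some androgen-responsive genes were lower in each library, and other androgen-responsive genes were higher. Trpv6 (GRCm38 chromosome 6, 41620624 to 41636405), an epithelial calcium channel, had 30.9, 26.3 and 64.8 TMM-scaled CPM at 21 months, against 92.3, 118 and 103 at 13 months. On the log2 scale it differed by -1.36 ± 0.31 (adjusted p = 0.1965) and -0.68 with replicate 3 alone, and the 3-month libraries stood at 153, 106 and 112. The ion and water transport list that holds Trpv6 had 1 of 14 above, 1 below and a median of -0.070. The 1 above was the transporter gene Slc4a4, with a log2 fold change of 1.84, or 0.46 with replicate 3 alone. In replicate 3 by itself 7 members lay above the 13-month range and 2 below. Ell2, an elongation factor that androgens induce in prostate, had 87.1, 89.8 and 119.5 TMM-scaled CPM at 21 months, against 149.8, 135 and 135 at 13 months, and the sign of its log2 fold change of -0.50 turned with library totals alone, to 0.010. Odc1, the first enzyme of polyamine synthesis, chosen after its values were seen, had 56.9, 44.9 and 58.6 TMM-scaled CPM at 21 months, against 82.7, 68.3 and 62.9 at 13 months, with a log2 fold change of -0.42 that turned to 0.14 with library totals alone. The androgen-responsive list as a whole had 3 of 18 above, 4 below and a median of 0.0078. The 3 above had larger differences than Ell2 and Odc1. Their log2 fold changes were 1.61 (Pmepa1), 2.77 (Tmprss2) and 2.93 (Slc45a3), or 0.95, 0.63 and 0.55 with replicate 3 alone. Cytosolic ribosomal protein genes had 0 of 35 above, 7 below and a median of -0.14, which turned to 0.42 with library totals alone. Rpl10, a ribosomal protein of the large subunit, had 74.4, 64.97 and 69.8 TMM-scaled CPM at 21 months, against 88.7, 79.6 and 88.9 at 13 months, with a log2 fold change of -0.30 ± 0.11 that likewise became 0.26.

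Epithelial identity genes gave few members outside the 13-month range in all 3 libraries. The luminal list had 1 of 21 above in all 3 libraries and 0 below, with a median of 0.12, and the basal list 1 of 11 above and 0 below. In replicate 3 by itself, 13 of the 21 luminal genes lay above the 13-month range and 0 below, with a median of 0.22, and 4 of the 11 basal genes lay above and 2 below, with a median of 0.0091. Krt14, a keratin of basal cells, had 13.1, 12.3 and 12.3 at 3 months, 7.45, 5.74 and 6.401 at 13 months and 10.4, 7.53 and 9.897 TMM-scaled CPM at 21 months. Krt19, a keratin of simple and ductal epithelia, had 225, 167 and 193 at 3 months, 105, 84.7 and 37.96 at 13 months and 170.1, 90.5 and 159 TMM-scaled CPM at 21 months, so its ages of 13 and 21 months overlapped. In both keratin genes the 13-month mean was the lowest of the 3 ages, and replicate 3 alone gave log2 fold changes of 0.61 and 1.08. Neither passed (adjusted p = 0.2165 and 0.2775).

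Growth factor genes had 6 of 43 above and 1 below, with a median of 0.40, or 0.31 with replicate 3 alone. Pdgfc, a growth factor for stromal cells, had 7.09, 7.32 and 5.18 TMM-scaled CPM at 21 months, against 2.72, 4.12 and 3.85 at 13 months. Sfrp1, a secreted Wnt antagonist, had 8.84, 16.3 and 16.5 TMM-scaled CPM at 21 months, against 5.74, 9.23 and 7.03 at 13 months. In Sfrp1 replicate 1 lay inside the 13-month range and replicates 2 and 3 above it. Among endothelial markers 1 of 18 was above with no overlap, Emcn, a sialomucin of venous and capillary endothelium, which had 10.4, 5.69 and 5.31 TMM-scaled CPM at 21 months, against 5.203, 3.03 and 2.73 at 13 months.

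Proliferation genes stood slightly higher at 21 months. The median over 40 genes was -1.92 at 13 against 3 months and 0.45 at 21 against 13 months, or 0.11 with replicate 3 alone. Mki67, the gene of the Ki-67 antigen, had 54.3, 55.2 and 44.1 at 3 months, 8.34, 7.77 and 2.95 at 13 months and 13.03, 10.4 and 8.85 TMM-scaled CPM at 21 months. The spindle gene Nusap1 had 4.895, 5.25 and 4.07 at 3 months, 0.6504, 0.678 and 0.403 at 13 months and 1.37, 1.12 and 1.04 TMM-scaled CPM at 21 months. Top2a, topoisomerase II alpha, chosen after its values were seen, had 33.7, 25.8 and 20.5 at 3 months, 4.43, 4.23 and 2.33 at 13 months and 14.7, 6.49 and 4.903 TMM-scaled CPM at 21 months. In all 3 genes the 21-month libraries lay above the 13-month ones and below the 3-month ones. Of the 40 members 10 were above the 13-month range with no overlap, 2 below (Mcm2 and Rrm2, whose signs turned with library totals alone), and 0 above all 6 younger libraries. None passed at 21 against 13 months (adjusted p = 0.2973, 0.1965 and 0.2275).

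At 13 against 3 months 7 genes were called higher (0.0436%) and 66 lower (0.411%), with 561 (3.49%) and 602 (3.75%) at an unadjusted p under 0.05. Whether the intervals differ was tested directly, as the change from 13 to 21 months minus the change from 3 to 13 months. No gene passed (0 of 16067, 0%, higher and 0% lower). At an unadjusted p under 0.05 there were 610 higher (3.80%) and 460 lower (2.86%), and DESeq2 called 86. The smallest adjusted p was 0.0773. It belonged to Nusap1, to Nek2, a mitotic kinase, and to Cpeb2, a translational regulator, the last pair chosen after their values were seen. Cpeb2 had 27.01, 25.8 and 24.8 at 3 months, 46.1, 52.9 and 68.7 at 13 months and 26.2, 30.8 and 32.2 TMM-scaled CPM at 21 months, so that its 13-month libraries stood above both other ages. For Thbs1 the difference was 1.99 ± 0.34 (adjusted p = 0.1825).

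Differences confined to the later interval were therefore described rather than called. A gene was taken as flat before midlife where the 95% interval of its log2 fold change at 13 against 3 months lay between −1 and 1, which held for 71.2% of all genes. Of the 1284 genes above at 21 months 705 (54.9%; 4.39% of all tested) were flat before, and of the 1325 below 1142 (86.2%; 7.11%) were. Both intervals use the same 13-month libraries, so these shares are a description. At 21 months 779 genes (4.85%) stood above and 707 (4.40%) below all 6 younger libraries. Thbs1, Apod, Gpx3 and Gadd45b were above all 6 with earlier log2 fold changes between −0.028 and 0.17, and Gclc, Gspt2 and H1f0 were below all 6 with earlier ones between 0.028 and 0.097. By contrast, Igkc, Ighm, Jchain and Ccl8 had earlier log2 fold changes of 2.24 to 3.02.

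Replicate 3 at 21 months was checked gene by gene. It lay above the 13-month range in 3655 of all genes (22.7%) and below it in 3707 (23.1%). Among genes with a log2 fold change of 1 to 2, it lay above the range in 397 of 693 (57.3%), within it in 264 and below it in 32. Among those at 2 to 4, it lay above in 93 of 177 (52.5%). Where genes were lower by 1 to 2, it lay below the range in 85 of 127 (66.9%). These groups of genes were formed with replicate 3 among the 21-month libraries and with the same 13-month libraries, so its direction in them is partly fixed by the choice and the shares are not set against those of all genes. Its own differences were smaller, with a median log2 fold change of 0.47 in replicate 3 alone for the genes at 1 to 2 and 0.43 for those at 2 to 4.

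**Figure D5:**
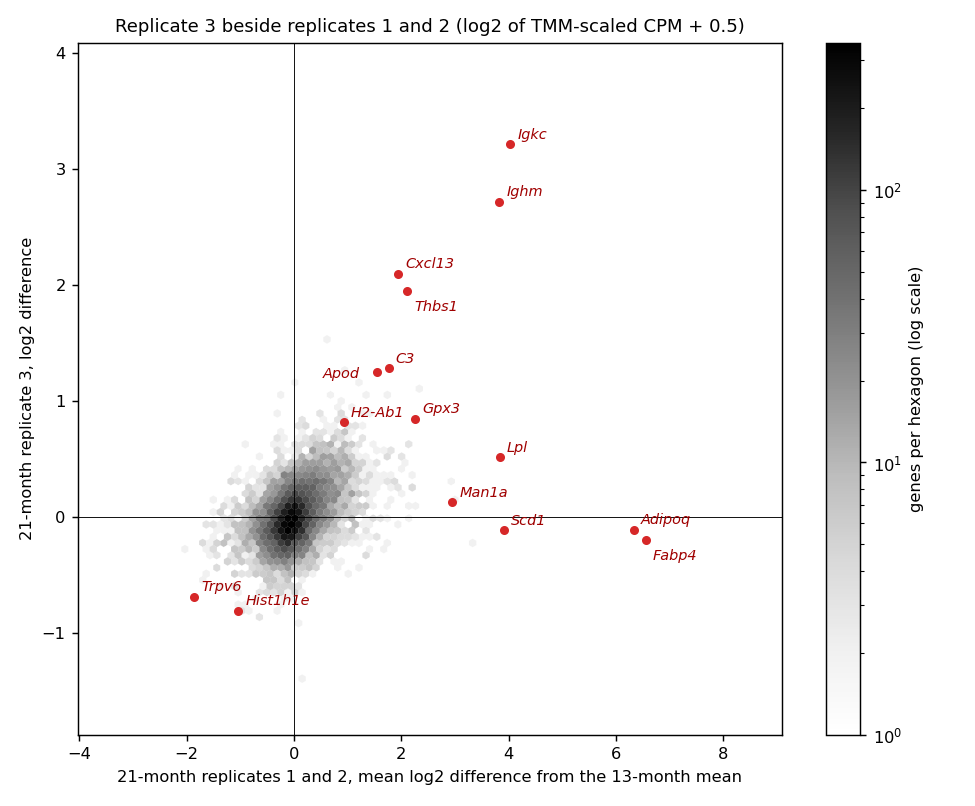
Log2 difference from the 13-month mean of 21-month replicates 1 and 2 (mean, horizontal) and of replicate 3 (vertical), for genes of average log2 CPM of at least 1, as hexagons shaded by the number of genes; 15 genes are marked in red. Igkc, Thbs1, Cxcl13 and C3 are high in both, whereas Fabp4, Adipoq and Scd1 are high in replicates 1 and 2 and near 0 in replicate 3. Man1a is also near 0 in replicate 3, and its mean over replicates 1 and 2 (779 and 37.1 TMM-scaled CPM) is high mostly through replicate 1.

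Genes at or near their 13-month level in replicate 3 included some of the largest fold changes of the interval. Fabp4, which carries fatty acids in adipocytes, had 49.8, 584 and 1.09 TMM-scaled CPM at 21 months, against 1.24, 1.67 and 1.07 at 13 months, and Adipoq, the adipocyte hormone adiponectin, had 14.5, 125 and 0 TMM-scaled CPM at 21 months, against 0.118, 0 and 0 at 13 months. Man1a, a mannosidase on the prostate list, had 779, 37.1 and 23.7 TMM-scaled CPM at 21 months, against 18.5, 23 and 23.4 at 13 months. Hspa1b, an inducible heat shock protein with the near-identical copy Hspa1a, had 52.8, 22.1 and 12.6 TMM-scaled CPM at 21 months, against 9.76, 11.6 and 19.4 at 13 months. With replicate 3 alone the log2 fold changes were −0.27 for Fabp4, 0.13 for Man1a and −0.11 for Hspa1b. The adipocyte list had a median of 5.61, or -0.26 with replicate 3 alone, the nerve list 1.17 or 0.23, and the list of ER chaperones 0.27 or -0.16. What these transcripts add to the immune and matrix differences in replicates 1 and 2 was not tested, and the values with replicate 3 alone above are free of them to the extent of the marker levels given.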

How the data were processed

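Total RNA of mouse seminal vesicle, extracted with TRIzol, was sequenced by a protocol that the labels name lncRNA-seq. The authors deposited 1 table of raw read counts per Ensembl gene, made with HISAT2 and featureCounts on GRCm38 (mm10), per the submitters' processing notes. Versions, annotation, strand setting and the handling of multiply mapped reads are not given in the sources used here, so overlapping genes and near-identical copies cannot be told apart. Columns were matched to samples by name. Symbols and coordinates came from GENCODE M21 for 53274 of 53379 identifiers.

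Genes were kept with filterByExpr (minimum count 10, total 15), scaled by TMM and fitted with 1 coefficient per age over all 9 libraries, with edgeR 4.0.16 in R 4.3.3 (quasi-likelihood F test, 6 residual degrees of freedom, Benjamini-Hochberg threshold 0.05). Standard errors are the size of the log2 fold change over the square root of F. Alternatives used DESeq2 1.42.0, limma 3.58.1, other scalings and filters, and each library left out, 22 settings in all. The steps were tested on simulated data. Each depth limits a library to a floor of 3 counts, which covers counting error only, whereas the 95% intervals of fold changes include the spread between libraries.

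The comparison and the 44 gene lists were chosen with earlier results of these data known. The naming rule was the 10 called genes of largest change in each direction, called in all 3 libraries or in replicate 3 alone, the 10 of smallest p for the difference between intervals, the called members of each list or its 2 of smallest p, and 10 genes by name. As 1 gene was called, most named genes are list members of smallest p. Set tests were not run. Some genes are not reported here.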

Additional observations from a re-analysis of the deposited data

How the results depend on the processing

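At 21 against 13 months, 1 gene passed the edgeR test. The count was 428 with DESeq2, 3 with limma-voom, 1240 with library totals alone (1233 higher, 7 lower), 5 with no filter beyond 1 count (Thbs1, Igkc, Ighm, Apod and Iglc2), 0 with the 6 libraries of both ages alone and 0 against a minimum 2-fold change. With replicate 3 as the only 21-month library 1 gene passed, Iglc3. Leaving out single libraries gave 0 to 1244. At 13 against 3 months the count of 73 became 211 with DESeq2, 33 with at least 10 counts in all 9 libraries, 11 against a minimum 2-fold change, 229 with replicate 3 as the only 21-month library and 1 to 150 without single libraries. For the difference between the intervals the count of 0 became 86 with DESeq2, 15 with no filter, 1 with replicate 3 alone and 0 to 61 without single libraries. The cause of these shifts was not tested. The samples share replicate numbers in the titles, but same-numbered libraries of 21 and 13 months deviated together in no common way (correlations of 0.051, 0.14 and −0.17), so the numbers were not used as pairs. With a replicate block the counts were 3 (Thbs1, Iglc3 and Apod) at 21 against 13 months, 45 at 13 against 3 months and 0 for the difference. Signs turned with library totals alone for Gclm (0.079), Ell2 (0.010), Rpl10 (0.26), Odc1 (0.14), Mcm2 (0.24) and Rrm2 (0.21). They turned with replicate 3 alone for Thbs3 (−0.30), Fabp4 (−0.27), Adipoq (−2.58) and Hspa1b (−0.11). Thbs3 also turned without 13-month replicate 1 (−0.087) and 21-month replicate 2 (−0.16), within a range of −0.16 to 0.53 over the libraries left out. The difference in the share of all 15 prostate genes, Spink1 included, 0.806 points over 3 libraries, ranged from −0.0465 points without 21-month replicate 1 to 1.249 points without replicate 2. Without Spink1 each 21-month library stood above each 13-month one, but replicate 3 only narrowly, at 0.00751% against at most 0.00736%. Its share lay among those of the 3-month libraries, 0.00750% to 0.00753%, and Tgm4, Pbsn, Msmb and Hoxb13 had 0 counts in it. At the floor of 3 counts, genes under 0.175 CPM in a library cannot be told from 0.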

Other observations

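The genes here were chosen after their values were seen. Apod, the lipid-binding apolipoprotein D, known for its rise in the ageing brain, had 34.5, 53.2 and 34.5 TMM-scaled CPM at 21 months, against 9.99, 17.9 and 14.9 at 13 months, with a log2 fold change of 1.51 ± 0.24 (adjusted p = 0.1965) and 1.28 with replicate 3 alone. At 3 months it stood at 11.1, 13.9 and 13.04. Ptger3, the prostaglandin E2 receptor EP3, had 30.9, 26.8 and 26.7 TMM-scaled CPM at 21 months, against 16.02, 16.3 and 18.4 at 13 months (log2 0.73 ± 0.12, adjusted p = 0.1965). Slc6a14, an amino acid transporter of epithelia, had 24.99, 18.2 and 21.5 at 3 months, 8.22, 7.25 and 5.64 at 13 months and 17.3, 15.8 and 11.2 TMM-scaled CPM at 21 months.

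Of 6 linker histone genes tested, 3 were lower in each 21-month library and 1, Hist1h1b, was higher in each. Hist1h1e, a somatic H1 gene that overlaps Hist1h2be, had 23.6, 23.1 and 27.3 TMM-scaled CPM at 21 months, against 52.3, 37.2 and 55.4 at 13 months, with a log2 fold change of -0.97 ± 0.16 (adjusted p = 0.1965) and -0.81 with replicate 3 alone. Hist1h1c had 39.1, 56.4 and 53.2 TMM-scaled CPM at 21 months, against 97.97, 60.6 and 115 at 13 months. H1f0, the H1 gene of differentiated cells, had 33.7, 33.2 and 42.1 TMM-scaled CPM at 21 months, against 64.7, 50.7 and 58.3 at 13 months. Of 53 tested genes of the histone clusters 34 had a negative log2 fold change, 10 had all 21-month libraries below all 13-month ones and 1 above, with a median of −0.25, or −0.36 with replicate 3 alone. Tent5d, a poly(A) polymerase family gene, had 7.501, 8.72 and 14.8 TMM-scaled CPM at 21 months, against 22.4, 37.1 and 35.3 at 13 months. Slco4c1, an organic anion transporter, had 86.5, 82.5 and 130.2 TMM-scaled CPM at 21 months, against 173, 177 and 220.4 at 13 months. Gspt2, a translation termination factor, had 33.7, 41.9 and 65.97 TMM-scaled CPM at 21 months, against 98.4, 87.6 and 123 at 13 months. Dgat2l6, an acyltransferase family gene, had 31.6, 28.7 and 29.4 at 3 months, 15.96, 18.1 and 15.6 at 13 months and 1.71, 4.83 and 8.399 TMM-scaled CPM at 21 months, lower with each age. None of these passed (adjusted p = 0.1965 each).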
